A study of Mus musculus with 16 samples.

Results

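The 10 genes described here encode the TGF-beta ligands (Tgfb1, Tgfb2, Tgfb3), their receptors (Tgfbr1, Tgfbr2, Tgfbr3), the TGF-beta-induced matrix protein Tgfbi, the activin subunits Inhba and Inhbb, and the activin antagonist Fst. They were chosen by name: every non-control probe whose gene name on the array was one of the 10 was taken, which gave 15 of the 43268 probes tested. All 10 genes and all 15 probes passed the filter on dim probes, and each was well above background on all 16 arrays. Tgfb1 and Tgfb2 had 2 probes each and Tgfbr1 had 4. Where a gene had several probes, the one with the highest mean, probe 1, stands for it.

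TGF-beta is secreted in a latent form and stored in bone matrix, from which resorption and mechanical forces can release it. The active ligand binds the type II receptor, which recruits and phosphorylates the type I receptor, and this in turn phosphorylates Smad2 and Smad3. Activins, dimers of inhibin beta subunits, signal through the same Smads by receptors of their own and are trapped by follistatin, the product of Fst. In the joint, TGF-beta signalling in subchondral bone is known for coupling resorption to new bone formation and has been studied in models of osteoarthritis.

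Expression was measured on single-colour Agilent arrays in subchondral bone of the medial tibia from male wild type C57BL6 mice, 1 joint of 1 mouse per array. Mice aged 10 to 12 weeks received destabilization of the medial meniscus (DMM), in which the medial menisco-tibial ligament is cut, or a sham operation in which that ligament was exposed and left intact. Both knees of each mouse were operated, so sham joints had also been opened. The groups were DMM at 6 weeks, sham at 6 weeks, DMM at 1 week and sham at 1 week after surgery, with 4 arrays in each, and no group was left unoperated.

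Bone was taken by laser microdissection from 10 µm sections, and 100 ng of RNA was labelled. The 8 osteoblast and osteocyte markers, among them Bglap and Sost, and the 6 osteoclast markers were well above background on all 16 arrays, and so were the erythroid, neutrophil, macrophage and B cell markers, so the tissue held bone and marrow transcripts. In such bulk tissue, fewer cells of a type and less RNA per cell cannot be told apart. Each value is a log2 intensity from which the array's own 75th percentile was subtracted, so 0 is a fairly bright probe. That percentile was 329 to 873 units, and the share of probes well above background 65.2% to 79.5%. One library, sham 6 weeks replicate 2, was the dimmest and lay at 210 on the first principal component (39.8% of the variance), against -80.7 to 86.5 for the other 15. Results that rest on it are given with and without it.

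The sequences of 5 probes are shown, since the values below are readings of these strands: the related ligands Tgfb1 and Tgfb2, the Tgfbr1 probe whose readings departed from those of Tgfbr1 probe 1, and the activin subunit and antagonist probes. Aligned without gaps, the Tgfb1 and Tgfb2 probes share 41 positions, of which 28 match. Capitals mark these matching bases, and in the other probes no letters are capitalised.
Tgfb1 probe 1 (chr7:26489877-26489936, plus strand): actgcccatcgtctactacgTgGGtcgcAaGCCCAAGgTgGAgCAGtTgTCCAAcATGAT
Tgfb2 probe 1 (chr1:188449333-188449392, minus strand): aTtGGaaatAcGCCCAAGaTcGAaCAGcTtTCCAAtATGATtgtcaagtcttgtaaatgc
Tgfbr1 probe 2 (chr4:47419898-47423556, plus strand, spanning 3659 genomic bases): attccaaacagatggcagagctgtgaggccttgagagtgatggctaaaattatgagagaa
Inhba probe 1 (chr13:16118634-16118693, plus strand): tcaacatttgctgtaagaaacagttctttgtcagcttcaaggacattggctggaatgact
Fst probe 1 (chr13:115244692-115245364, minus strand, spanning 673 genomic bases): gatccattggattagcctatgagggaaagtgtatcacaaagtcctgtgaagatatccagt

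Matching bases made up 68.3% of the aligned stretch, the highest share in the best ungapped alignments of all pairs of the 15 probes. Each probe is 60 bases long, and the positions are those the scanner files give on the mouse assembly mm9. The Tgfbr1 and Fst probes shown are listed over a longer stretch of genome than their own length. The place of the probes within their genes (exon or UTR) was not analysed here.

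Levels differed widely between probes. Tgfbi lay between 2.82 and 5.18 over the 16 arrays and Tgfbr2 between 2.27 and 3.50. Tgfb3 lay between -0.45 and 2.99, Tgfb2 between -0.79 and 1.94, and Tgfbr3 between -0.24 and 0.87. Inhbb lay between -2.32 and -0.49 and Fst between -3.44 and -2.33. Probes differ in how brightly they bind, so these values do not order the abundance of the transcripts.

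**Figure D1:**
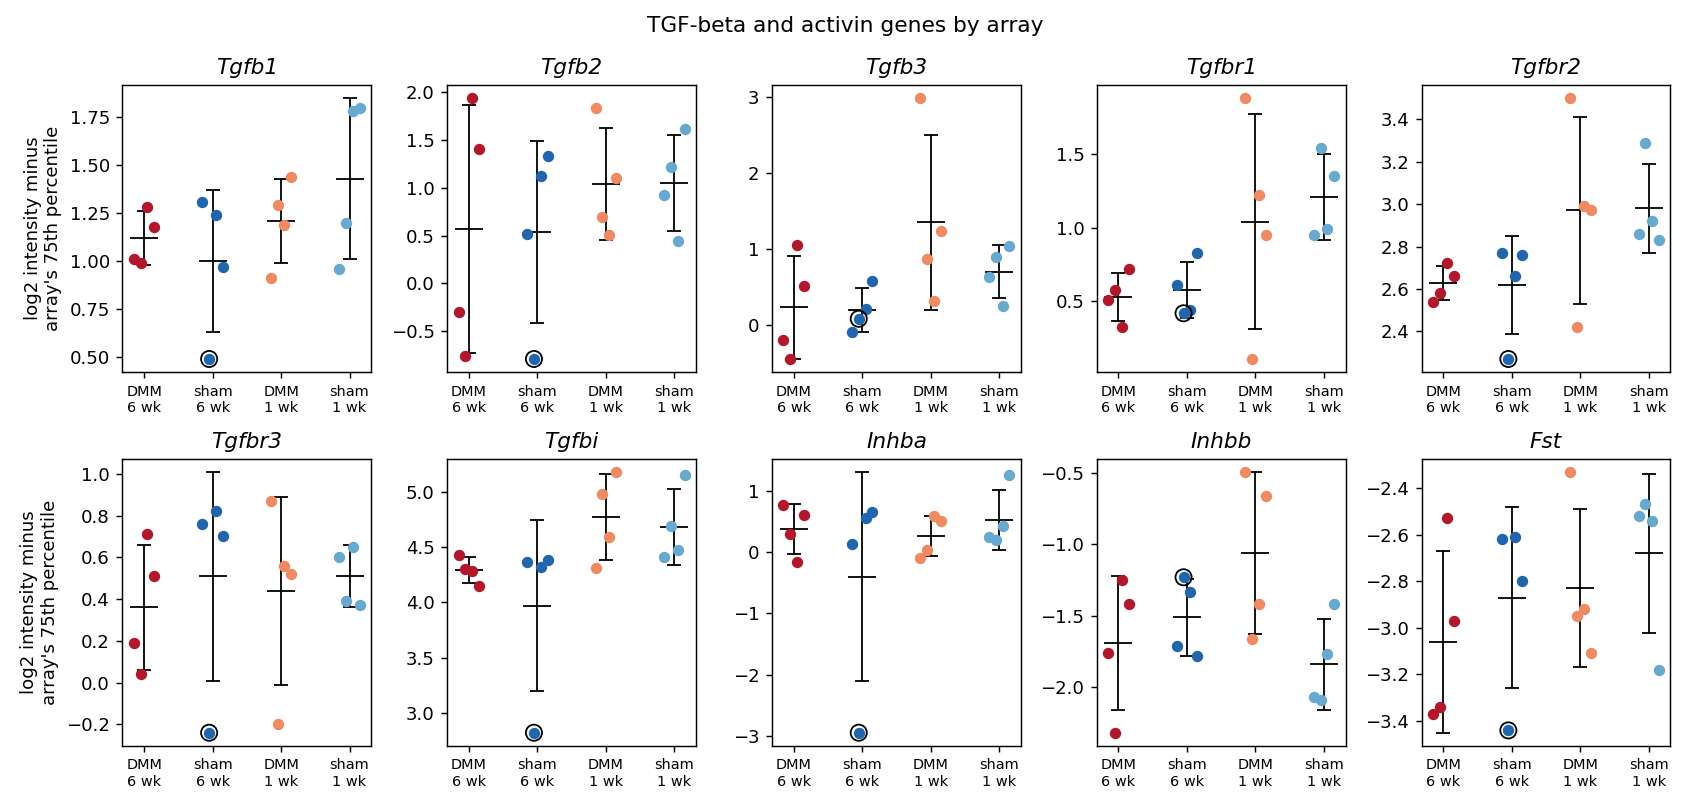
Each panel plots 1 gene, with the log2 intensity minus the array's 75th percentile on the vertical axis and the 4 groups on the horizontal axis. Points are arrays (n = 4 per group), bars are mean and SD, and a circle marks sham 6 weeks replicate 2. That array is the lowest of the 16 for 7 of the 10 genes, and the 6-week groups of Tgfbr1 (0.33 to 0.83) lie below all but 1 of the 1-week arrays.

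What did destabilization do to these genes at 1 week? No member passed the test, and neither did any other probe: 0% of 43268 probes had an adjusted p under 0.05 (limma, Benjamini-Hochberg), and 0.975% (422 probes) had an unadjusted p under 0.05. Of the 10 genes, 3 had a higher and 7 a lower mean after DMM, with a median log2 difference of -0.05, against 0 over all genes. This split rested on single arrays: 3 genes had a lower mean without DMM 1 week replicate 2, and 8 without DMM 1 week replicate 4. The one that stood out was Inhbb, the beta B subunit of activins.

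Inhbb read -0.49, -1.66, -1.42 and -0.66 in DMM joints at 1 week, against -2.07, -2.09, -1.77 and -1.42 in sham joints. All 4 DMM values lay above the sham mean, but the groups overlapped, since 2 DMM joints were at or below the highest sham joint. The log2 difference was 0.78 ± 0.29 (SE), a 1.72-fold higher level with a 95% interval of 0.16 to 1.40 on the log2 scale and an unadjusted p of 0.0169 in limma; its adjusted p was 1. The difference was 1.01 within the first slide and 0.55 within the second. Leaving out 1 array at a time moved it between 0.59 and 0.98.

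Inhba, the beta A subunit, read -0.09, 0.04, 0.58 and 0.50 in DMM joints at 1 week, against 0.24, 0.19, 0.43 and 1.25 in sham joints. Its difference of -0.27 ± 0.60 did not pass. Fst, which binds activins and blocks them, read -2.33, -2.95, -2.92 and -3.11 after DMM, against -2.52, -2.47, -2.54 and -3.18 after sham, a difference of -0.15 ± 0.26. Without sham 1 week replicate 4, the joint with the highest Inhba and the lowest Fst of its group, the difference was -0.03 for Inhba and -0.32 for Fst.

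Among the ligands, Tgfb3 read 2.99, 0.87, 0.32 and 1.24 in DMM joints at 1 week, against 0.63, 0.89, 0.25 and 1.04 in sham joints. DMM replicate 1 was far above the other 7 joints, and the remaining 3 DMM values lay close to the sham range. The difference was 0.65 ± 0.46 (95% interval -0.33 to 1.63), and 0.10 without that array. Tgfb1, the isoform stored in bulk in bone matrix, read 0.91, 1.29, 1.19 and 1.44 in DMM joints and 0.96, 1.20, 1.78 and 1.80 in sham joints. The 2 highest Tgfb1 values were both sham joints, and the difference of -0.23 ± 0.23 did not pass. Tgfb2 read 1.84, 0.69, 0.51 and 1.10 in DMM joints and 0.93, 1.22, 0.44 and 1.62 in sham joints, a difference of -0.02 ± 0.58 with groups that overlapped throughout.

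The receptors did not separate DMM from sham at 1 week. Tgfbr1, the type I receptor kinase, read 1.88, 0.11, 1.22 and 0.95 in DMM joints and 0.95, 1.54, 0.99 and 1.35 in sham joints, a difference of -0.16 ± 0.28. Tgfbr2, the type II receptor that binds ligand first, read 3.50, 2.42, 2.99 and 2.97 in DMM joints and 2.86, 3.29, 2.92 and 2.83 in sham joints, a difference of -0.01 ± 0.21. Within DMM, replicates 1 and 2 held the highest and the lowest value of both receptors. Tgfbr3, betaglycan, which presents ligand to the type II receptor, read 0.87, -0.20, 0.56 and 0.52 in DMM joints and 0.60, 0.39, 0.65 and 0.37 in sham joints, a difference of -0.07 ± 0.26. The 95% intervals were -0.77 to 0.44 for Tgfbr1, -0.45 to 0.43 for Tgfbr2 and -0.63 to 0.50 for Tgfbr3. With 4 arrays a group, differences within these intervals remained compatible with the data.

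Tgfbi, a secreted adhesion protein of the matrix that TGF-beta induces in many cells, read 4.31, 4.98, 4.59 and 5.18 in DMM joints at 1 week, against 4.41, 4.69, 4.47 and 5.15 in sham joints. The groups covered nearly the same range, and the difference was 0.09 ± 0.32. Over the 10 genes, 0 had DMM and sham ranges that did not overlap at 1 week, against 1.24% of all probes.

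At 6 weeks no member passed either: 0% of probes had an adjusted p under 0.05 and 0.904% (391 probes) an unadjusted one in limma, and 0 of the 10 genes had either. Of the 10, 6 had a higher and 4 a lower mean after DMM, with a median of 0.02 against -0.02 over all genes. Sham replicate 2 decided this split. Without it all 10 genes had a lower mean after DMM (differences from -0.42 to 0.00, median -0.09), while 50.4% of all probes did, and 0 of the 10 had an unadjusted p under 0.05.

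Inhba showed this most. It read 0.77, 0.29, -0.16 and 0.61 in DMM joints at 6 weeks, against 0.13, -2.95, 0.55 and 0.65 in sham joints. A single sham joint lay far below the other 15 arrays, and the difference of 0.78 ± 0.60 (unadjusted p 0.209, adjusted p 0.999 in limma) became -0.07 without it. Within slides the difference was 1.95 and -0.38. Tgfbi read 4.43, 4.30, 4.28 and 4.15 in DMM joints and 4.36, 2.82, 4.32 and 4.38 in sham joints, where the same joint was again the low one. Its difference of 0.32 ± 0.32 became -0.06 without that joint.

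Inhbb, the gene highest above sham at 1 week, read -1.76, -2.32, -1.25 and -1.42 in DMM joints at 6 weeks, against -1.71, -1.23, -1.33 and -1.78 in sham joints. The groups overlapped and the difference was -0.18 ± 0.29. The difference between the DMM effects at the 2 times was tested directly: for Inhbb it was -0.96 ± 0.41 (6 weeks minus 1 week, 95% interval -1.83 to -0.08, unadjusted p 0.0342 in limma, adjusted p 1). It was -1.58 within the first slide and -0.33 within the second. Inhbb was the only 1 of the 10 genes with an unadjusted p under 0.05 for this difference, which 0.726% of all probes had, and 0% of probes passed after adjustment. Leaving out 1 array at a time gave -1.16 to -0.75. Without sham 6 weeks replicate 2 it was -0.86 with an unadjusted p of 0.06 in limma, so that 0 of the 10 genes were then under 0.05, against 1.44% of all probes.

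Fst read -3.37, -3.34, -2.53 and -2.97 in DMM joints at 6 weeks and -2.62, -3.44, -2.61 and -2.80 in sham joints. Both groups held joints at the low and the high end of this range, and the difference was -0.19 ± 0.26, or -0.38 without sham replicate 2. Tgfb1 read 1.01, 0.99, 1.28 and 1.18 in DMM joints and 1.31, 0.49, 1.24 and 0.97 in sham joints, a difference of 0.11 ± 0.23. Tgfb2 read -0.30, -0.76, 1.94 and 1.41 in DMM joints and 0.52, -0.79, 1.12 and 1.33 in sham joints. The DMM joints of Tgfb2 were 2 low ones on one slide and 2 high ones on the other, and the difference was 0.03 ± 0.58. Tgfb3 had the same low pair, with -0.20, -0.45, 1.05 and 0.51 in DMM joints and -0.10, 0.08, 0.21 and 0.58 in sham joints, a difference of 0.03 ± 0.46.

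Surgery groups overlapped for each receptor at 6 weeks. Tgfbr1 read 0.51, 0.58, 0.33 and 0.72 in DMM joints and 0.61, 0.42, 0.44 and 0.83 in sham joints, a difference of -0.04 ± 0.28. Tgfbr2 read 2.54, 2.58, 2.72 and 2.66 in DMM joints and 2.77, 2.27, 2.66 and 2.76 in sham joints, a difference of 0.01 ± 0.21. Without sham replicate 2, all 4 DMM values of Tgfbr2 lay within or below the sham range of 2.66 to 2.77. Tgfbr3 read 0.19, 0.04, 0.71 and 0.51 in DMM joints and 0.76, -0.24, 0.82 and 0.70 in sham joints, a difference of -0.14 ± 0.26 that was -0.39 without sham replicate 2. Over the 10 genes, 0 had DMM and sham ranges that did not overlap at 6 weeks, against 0.508% of all probes.

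**Figure D2:**
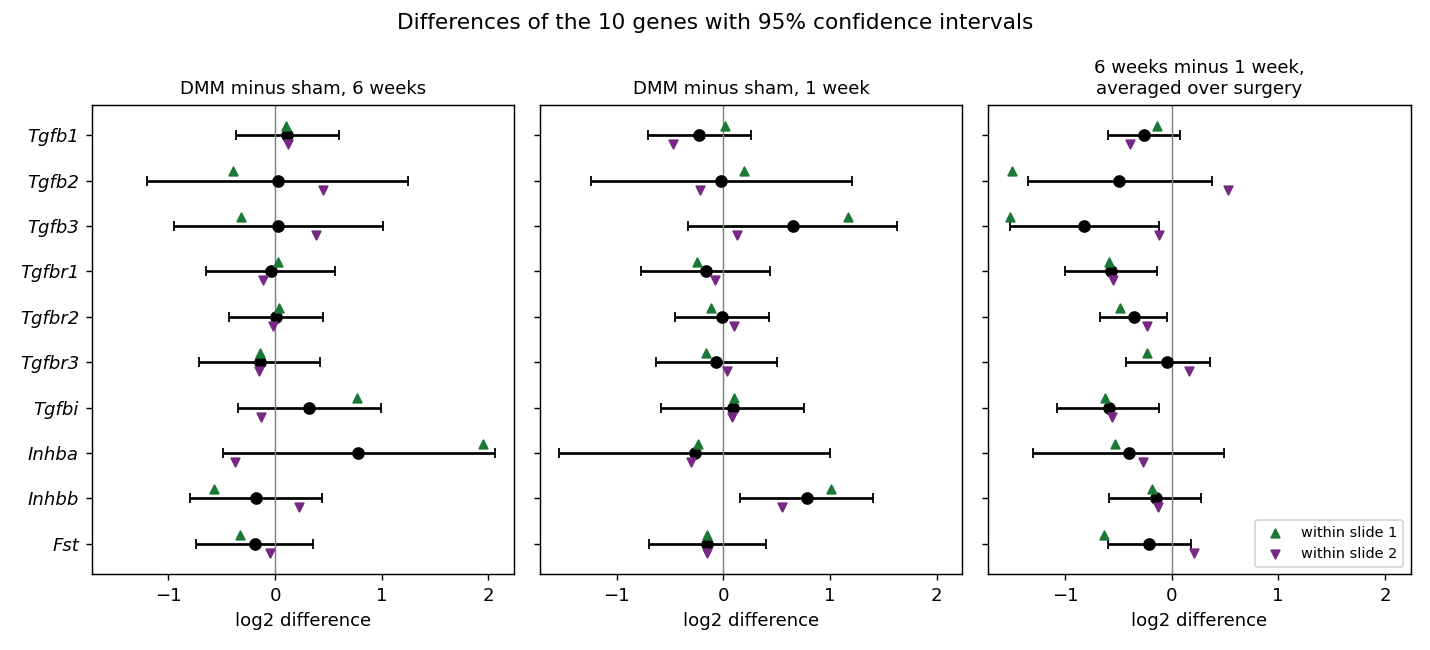
Log2 differences of the 10 genes (points) with 95% confidence intervals from limma (bars) are plotted for DMM minus sham at 6 weeks, at 1 week, and for 6 weeks minus 1 week averaged over surgery. Triangles give the difference within each slide of 8 arrays. The interval of Inhbb at 1 week (0.16 to 1.40) lies above 0, and in the right panel all 10 points lie below 0, those of Tgfb3, Tgfbr1, Tgfbr2 and Tgfbi with intervals that leave out 0.

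The 10 genes were next compared between the times. At 6 weeks, averaged over DMM and sham, all 10 genes had a lower mean than at 1 week, with differences from -0.82 to -0.04 and a median of -0.38, against 0.04 over all genes. Lower means were found for 48.8% of all probes. An unadjusted p under 0.05 was reached by 4 of the 10 (Tgfb3, Tgfbr1, Tgfbr2 and Tgfbi), all lower at 6 weeks, against 9.39% of all probes that were lower and 16.5% in either direction. After adjustment 0 of the 10 passed, the lowest adjusted p being 0.16, while 0.832% of all probes did (360 probes, 241 higher and 119 lower at 6 weeks). Without sham 6 weeks replicate 2, 8 of the 10 had a lower mean, 53.6% of all probes did, the median of the 10 was -0.23 and 3 had an unadjusted p under 0.05, which 24.5% of all probes had in that fit. Of the 10, 0 then passed after adjustment, against 5.56% of all probes. Since mice were also older by then, time after surgery and age cannot be told apart.

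Tgfbr1 ranged from 0.33 to 0.83 over the 8 joints at 6 weeks (median 0.54), against 0.11 to 1.88 over the 8 joints at 1 week (median 1.11). All 8 joints at 6 weeks lay below the 1-week mean of 1.12, and 1 joint at 1 week, DMM replicate 2, lay below all of them. The log2 difference was -0.57 ± 0.20 (a ratio of 0.674, unadjusted p 0.0124, adjusted p 0.16 in limma). It was -0.59 and -0.55 within the 2 slides, and -0.72 to -0.43 when 1 array at a time was left out. When arrays were weighted by their estimated quality, it was -0.60 with an adjusted p of 0.00781 in limma. The weights of the sham joints at 6 weeks were 1.04, 0.0795, 7.03 and 0.927 for replicates 1 to 4. The weighted mean of that group therefore rested mostly on replicate 3. Under these weights 19.6% of all probes passed.

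Tgfbr2 ranged from 2.27 to 2.77 at 6 weeks (median 2.66), against 2.42 to 3.50 at 1 week (median 2.95). All 8 joints at 6 weeks lay below the 1-week mean of 2.97. The difference was -0.35 ± 0.15 (unadjusted p 0.0303, adjusted p 0.24 in limma), -0.48 and -0.23 within slides, and -0.34 with an adjusted p of 0.0166 under the same array weights (19.6% of all probes passed). Tgfbr3 ranged from -0.24 to 0.82 at 6 weeks and from -0.20 to 0.87 at 1 week, and its difference of -0.04 ± 0.19 had a 95% interval of -0.43 to 0.36. Whether the 2 kinase receptors and Tgfbr3 differed from each other in their change was not tested.

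Tgfbi ranged from 2.82 to 4.43 at 6 weeks (median 4.31), against 4.31 to 5.18 at 1 week (median 4.64). All 8 joints at 6 weeks lay below the 1-week mean of 4.72. The difference was -0.59 ± 0.22 (ratio 0.664, unadjusted p 0.018, adjusted p 0.188 in limma), -0.62 and -0.56 within slides. Without sham 6 weeks replicate 2 it was -0.40 (adjusted p 0.108), and under array weights, with 19.6% of all probes past the threshold, -0.50 (adjusted p 0.0142). In the authors' deposited table of normalized values it was -0.69 with an adjusted p of 0.0541.

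Tgfb3 ranged from -0.45 to 1.05 at 6 weeks (median 0.15), against 0.25 to 2.99 at 1 week (median 0.88). The difference of -0.82 ± 0.33 (ratio 0.567, unadjusted p 0.0238, adjusted p 0.215 in limma) was the largest of the 10. It was uneven: -1.51 within the first slide and -0.12 within the second. Without DMM 1 week replicate 1, the highest array, it was -0.55.

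Tgfb2 ranged from -0.79 to 1.94 at 6 weeks (median 0.82) and from 0.44 to 1.84 at 1 week (median 1.02). Its difference of -0.49 ± 0.41 was -1.50 in the first slide and 0.53 in the second, so the slides disagreed in sign. It was -0.26 without DMM 6 weeks replicate 2 and -0.03 under array weights. Tgfb1 ranged from 0.49 to 1.31 at 6 weeks (median 1.09) and from 0.91 to 1.80 at 1 week (median 1.24). All 8 Tgfb1 values at 6 weeks lay below the 1-week mean of 1.32, but the difference of -0.26 ± 0.16 was small against its error (adjusted p 0.459 in limma).

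None of the activin genes had an unadjusted p under 0.05 for time. Inhba ranged from -2.95 to 0.77 at 6 weeks (median 0.42) and from -0.09 to 1.25 at 1 week (median 0.33), a difference of -0.40 ± 0.42 that was 0.02 without sham 6 weeks replicate 2. Inhbb ranged from -2.32 to -1.23 at 6 weeks (median -1.56) and from -2.09 to -0.49 at 1 week (median -1.54), a difference of -0.15 ± 0.21. Fst ranged from -3.44 to -2.53 at 6 weeks (median -2.89) and from -3.18 to -2.33 at 1 week (median -2.73), a difference of -0.21 ± 0.18. For 4 of 8 joints Inhbb at 6 weeks lay above the 1-week mean and for 4 below it. Over the 10 genes, 0 had time groups that did not overlap, against 0.64% of all probes.

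The genes with several probes allowed the same question to be asked with other parts of the transcript. For Tgfbr1 all 4 probes had a lower mean at 6 weeks: -0.57, -0.40, -0.48 and -0.39, with unadjusted p-values of 0.0124, 0.109, 0.0199 and 0.0282 in limma, none past the threshold after adjustment. Without sham 6 weeks replicate 2 the differences were -0.54, -0.59, -0.55 and -0.47. Probe 2 was then past the threshold with an adjusted p of 0.0497 in limma, as were 5.56% of all probes. The 4 Tgfbr1 probes nevertheless did not follow each other closely from array to array. Probes 1 and 2 correlated at r = 0.22 over the 16 arrays and probes 2 and 3 at r = 0.83. Over the 15 arrays without sham 6 weeks replicate 2 these were 0.46 and 0.90. The largest disagreement lay in sham 6 weeks replicate 2, which read 0.42 on probe 1, below the 1-week mean, and 0.80 on probe 2, the highest of the 16. Probes 3 and 4 are assigned to other Ensembl transcripts of Tgfbr1 in the files and were dim, from -3.83 to -2.16 and from -4.23 to -3.04.

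The Tgfb2 probes ranked the arrays alike, with r = 0.96 over the 16 arrays and a gap of 0.58 to 1.34 between them. The differences with time were -0.49 ± 0.41 and -0.54 ± 0.41. The Tgfb1 probes correlated at r = 0.78 and had differences of -0.26 ± 0.16 and -0.15 ± 0.14. The 4 Tgfbr1 probes also had lower means after DMM at 6 weeks (-0.04, -0.33, -0.34 and -0.26), and none had an unadjusted p under 0.05. These were, without sham 6 weeks replicate 2, -0.10, 0.06, -0.20 and -0.11, so probe 2 changed sign. These correlations are across arrays that share depth and tissue content, and carry no test.

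**Figure D3:**
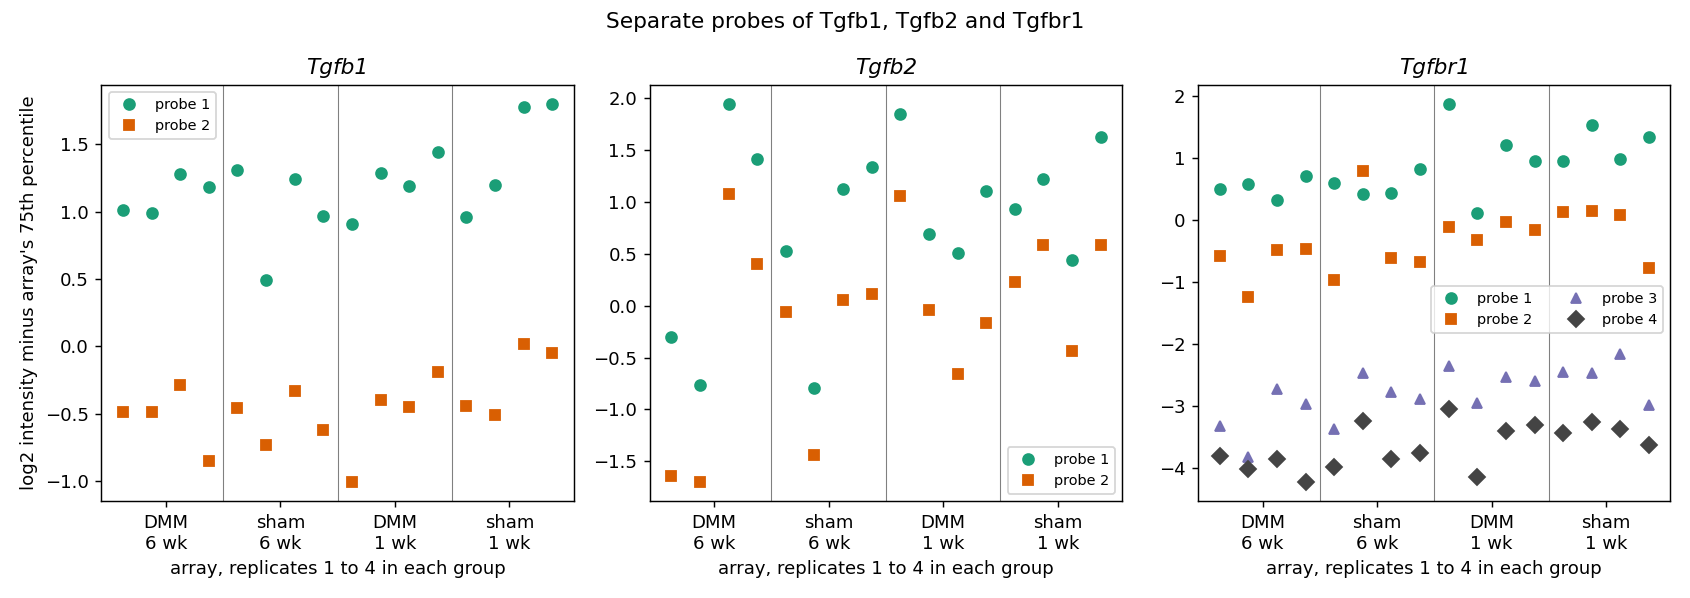
Log2 intensity minus the array's 75th percentile is plotted for each probe of Tgfb1, Tgfb2 and Tgfbr1 (colours and symbols), with the 16 arrays in order of group and replicate on the horizontal axis. The 2 Tgfb2 probes follow each other, including the low DMM joints 1 and 2 at 6 weeks (-0.30 and -0.76 on probe 1), while the second 6-week sham array is low on Tgfbr1 probe 1 (0.42) and highest on probe 2 (0.80).

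Other genes of the pathway were examined as 5 lists, of which the Smad list and the list of induced genes share Smad7, Skil and Tgif1. In DMM against sham, 0 genes of any list passed the test at 1 week, at 6 weeks, or for the difference between them. Of the 18 induced genes, 10 had a higher and 8 a lower mean after DMM at both times (medians 0.02 at 6 weeks and 0.08 at 1 week). Of 12 Smads and regulators, 7 had a lower mean at 6 weeks and 10 at 1 week. Of 12 latency genes 9 had a lower mean at 6 weeks (median -0.20) and 6 at 1 week, and of 11 other activin genes 10 (median -0.11) and 7. The 5 co-receptors had 3 higher means at 6 weeks and 5 at 1 week. Among the genes with the smallest p in each list at 1 week were the actin-binding protein gene Tagln at 0.44 ± 0.32, the inhibitory Smad7 at -0.35 ± 0.28, the Smad co-repressor Tgif2 at -0.17 ± 0.16, the decoy receptor Bambi at 0.43 ± 0.38, the endothelial co-receptor Eng at 0.14 ± 0.25, the TGF-beta-binding proteoglycan Dcn at 0.53 ± 0.37, the latent TGF-beta anchor Lrrc32 at -0.28 ± 0.20, and Gdf11 and Tdgf1 at 0.26 ± 0.31 and -0.26 ± 0.52. None of these had an unadjusted p under 0.05 in limma.

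At 6 weeks after DMM the inhibitory Smad6 stood at 0.50 ± 0.21 with an unadjusted p of 0.0297 and an adjusted p of 0.999 in limma. It read -0.43, -0.27, -0.44 and -0.21 in DMM joints, against -1.25, -1.14, -0.67 and -0.29 in sham joints. The groups overlapped only through sham replicate 4. Its difference was 0.84 in the first slide and 0.15 in the second, and 0.36 to 0.68 when 1 array at a time was left out. An unadjusted p under 0.05 was reached by 0.904% of all probes. Dcn was at 0.68 ± 0.37, Lrrc32 at -0.37 ± 0.20, Tgif2 at -0.29 ± 0.16, Tgfbrap1 at -0.11 ± 0.16, Bambi at 0.22 ± 0.38, Tsc22d1 at 0.30 ± 0.24, Pmepa1 at -0.47 ± 0.43, Acvr2b at -0.34 ± 0.28 and the type I activin receptor gene Acvr1c at -1.51 ± 0.86. None of these passed. The difference without sham 6 weeks replicate 2 was -0.11 for Pmepa1, -0.08 for Acvr2b and -0.21 for Lrrc32.

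With time, lower means were the more frequent in every pathway list. Of 18 genes that TGF-beta is known to induce, 16 had a lower mean at 6 weeks, as did 44.4% of all genes. Their median was -0.29, against 0.04 over all genes. An unadjusted p under 0.05 in limma was reached by 7 of the 18, against 16.5% of all probes. After adjustment 0 of the 18 passed, against 0.832% of all probes. Pmepa1, a feedback inhibitor that TGF-beta induces, averaged 0.97 in DMM and 1.44 in sham joints at 6 weeks, against 2.44 in DMM and 2.15 in sham joints at 1 week. Its time difference was -1.09 ± 0.30 (adjusted p 0.0886 in limma), and without sham 6 weeks replicate 2 it was -1.27 (adjusted p 0.0281). Without that array 5.56% of all probes passed.

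Of 12 measured genes for latency and activation, 8 had a lower mean and 1 passed: Emilin1, an extracellular glycoprotein that holds back the processing of pro-TGF-beta, fell by 0.72 on the log2 scale at 6 weeks (SE 0.14, adjusted p 0.0382 in limma). Emilin1 read -1.19, -1.55, -0.62 and -1.14 in DMM and -1.09, -1.04, -0.79 and -0.86 in sham joints at 6 weeks, against -0.39, -0.02, -0.55 and -0.26 in DMM and -0.58, -0.36, -0.29 and -0.07 in sham joints at 1 week. The 8 joints at 6 weeks all lay below the 8 at 1 week, though narrowly, with -0.62 against -0.58 at the nearest. Time groups did not overlap for 0.64% of all probes, and 0.832% of all probes passed the test. The difference for Emilin1 was -0.88 and -0.56 within slides. However, its adjusted p in limma was between 0.0594 and 0.0998 when any of 12 of the arrays was left out. The call held without DMM 6 weeks replicate 3, sham 6 weeks replicate 2, DMM 1 week replicate 3 or sham 1 week replicate 3. It was also lost with no filter on dim probes (adjusted p 0.0637). The difference itself stayed between -0.80 and -0.65 whichever array was left out.

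All 12 Smads and their regulators were measured and 11 had a lower mean, with a median of -0.21. The ubiquitin ligase Smurf2 was at -0.29 ± 0.10 and Smad6 at -0.38 ± 0.15, neither past the threshold. Smurf2 passed without sham 6 weeks replicate 2 (-0.32, adjusted p 0.0432), while Smad6 did not (-0.33, adjusted p 0.163). All 5 co-receptors and associated proteins had a lower mean, with a median of -0.31. Zfyve9, the Smad anchor SARA, was at -0.48 ± 0.20 and Tgfbrap1 at -0.22 ± 0.11. Of 11 measured genes of the other activin family 7 had a lower mean, with a median of -0.26. Gdf11 was at -0.72 ± 0.22 and the type I receptor gene Acvr1 at -0.67 ± 0.20. Both passed without sham 6 weeks replicate 2, with -0.83 (adjusted p 0.035 in limma) for Gdf11 and -0.74 (adjusted p 0.0483) for Acvr1. In that fit, where Smurf2 passed as well, 5.56% of all probes were past the threshold. Under array weights Smurf2, Smad6, Zfyve9, Gdf11 and Acvr1 were all past the threshold, as were 19.6% of all probes. Without sham 6 weeks replicate 2 the lower means numbered 17 of 18, 9 of 12, 12 of 12, 5 of 5 and 9 of 11 in the order induced genes, latency, Smads, co-receptors and activin family.

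**Figure D4:**
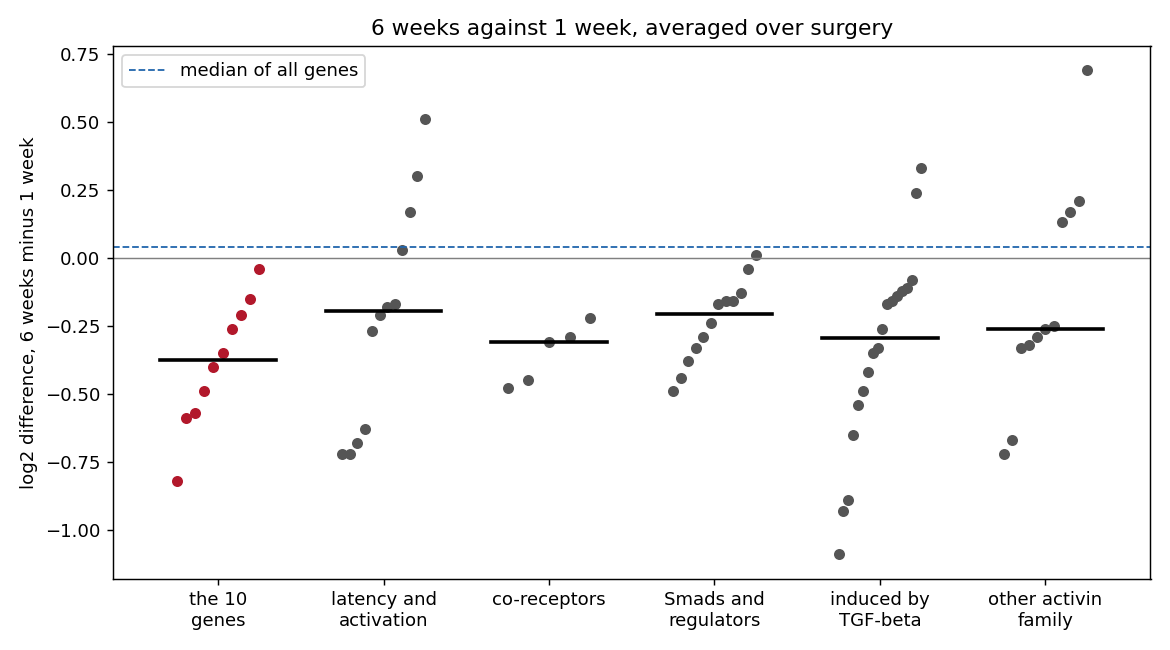
Points are the log2 differences of single genes at 6 weeks minus 1 week, averaged over surgery, for the 10 genes and 5 pathway lists on the horizontal axis, with black bars at the medians and a dashed line at the median of all genes (0.04). The medians run from -0.38 for the 10 genes to -0.20 for latency genes, all below the line.

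Markers of bone, cartilage and marrow cells also differed between the groups, and their part in the results was not tested. Osteoclast markers had lower means at 6 weeks in 6 of 6 with a median of -0.79, and Mmp9 passed the test at -0.80 ± 0.12 (adjusted p 0.0347 in limma). Erythroid markers had higher means in 6 of 6 with a median of 1.24, and Alas2 passed at 1.30 ± 0.27 (adjusted p 0.0441). Skeletal muscle markers had higher means in 6 of 6 with a median of 0.76, and Mylpf passed at 1.16 ± 0.26 (adjusted p 0.0486 in limma). However, Myh4 and Ckm were well above background on 4 and 5 arrays only. The calls of Mmp9, Alas2 and Mylpf were lost where 0 probes passed, as with no filter on dim probes or without DMM 6 weeks replicate 1. Osteoblast and osteocyte markers had lower means in 6 of 8 with a median of -0.45, chondrocyte markers higher in 7 of 8 with a median of 1.19, and platelet markers higher in 7 of 8 with a median of 0.83.

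Summed over each list, on the log2 scale, osteoclast markers lay between 7.77 and 9.15 over the joints at 6 weeks and between 8.65 and 9.57 over those at 1 week. The erythroid sum lay between 7.35 and 9.37 at 6 weeks, against 6.07 to 8.52 at 1 week. The fibrous and synovial sum, from 7 of 8 markers since Dpt was not measured, lay between 3.68 and 4.67 at 6 weeks, against 4.26 to 5.11 at 1 week. Megakaryocyte and platelet markers, cells known to store TGF-beta in their granules, summed to 6.89 to 8.02 at 6 weeks and 6.01 to 7.48 at 1 week. Without sham 6 weeks replicate 2, the erythroid sum at 6 weeks was 8.50 to 9.37 and the platelet sum 7.15 to 8.02. The fibrous and synovial sum was then 3.68 to 4.29, and the osteoclast range did not change.

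At 1 week after DMM the list with the largest shift was that of adipocyte markers, higher in 6 of 6 with a median of 1.01. Platelet markers were lower in 7 of 8 with a median of -0.57, and osteoblast and osteocyte markers higher in 7 of 8 with a median of 0.30. These stood beside the Inhbb difference, and 0 genes of any list passed the test. In DMM 1 week replicate 1, which held the highest value of the 16 arrays for 6 of the 10 genes, the mean deviation from the 16-array mean was 0.95 for osteoblast and osteocyte markers, 0.99 for osteoclast, 0.88 for endothelial, 0.94 for fibrous and 1.50 for adipocyte markers. In sham 6 weeks replicate 2, the lowest for 7 of the 10, the mean deviation was 2.56 for chondrocyte markers, -1.28 for erythroid and -0.73 for macrophage markers. The low Tgfb2 and Tgfb3 values of DMM joints 1 and 2 at 6 weeks stood beside fibrous marker deviations of -1.22 and -1.03. Other lists in these joints went both ways, with -0.74 and -0.60 for osteoblast and osteocyte markers and 1.27 and 1.03 for erythroid markers. Sham 6 weeks replicate 2, where Tgfb2 was also low (-0.79), had a fibrous deviation of -0.45.

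**Figure D5:**
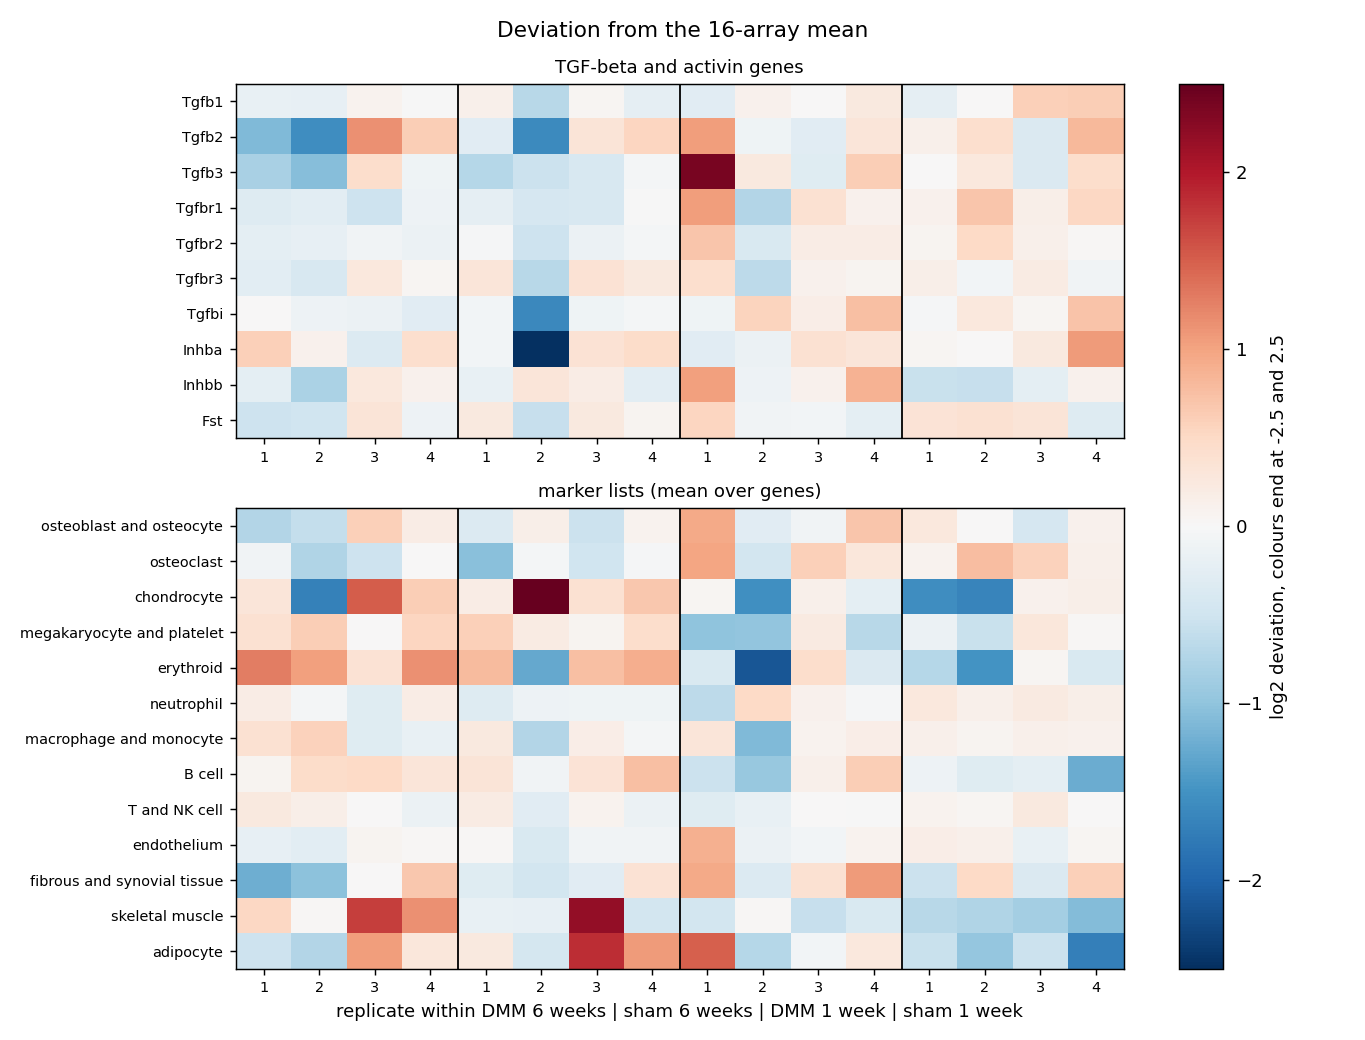
Colours give the log2 deviation from the 16-array mean of each of the 10 genes (top) and of 13 marker lists (bottom, mean over the genes of a list), with arrays in columns by group and replicate. Sham 6 weeks replicate 2 is low for Inhba and high for chondrocyte markers (2.56), and DMM 1 week replicate 1 is high for Tgfb3 and for bone, endothelial and fibrous markers.

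For each of the 10, the genes with the most similar pattern over the 16 arrays were sought among 19753 genes with a current symbol. The arrays share depth and tissue content, so these coefficients are descriptions without a test, and each is followed by the value over 15 arrays without sham 6 weeks replicate 2. Tgfb3 was most like Hoxc9 (r = 0.96, then 0.97) and Clip3 (0.96, then 0.96). Tgfb2 was most like Thbs4 (0.93, then 0.91) and Phlda1 (0.92, then 0.92), and Tgfb1 most like Irf2bp1 (0.92, then 0.88) and Rbmx (0.90, then 0.85). Thbs4 was itself among the fibrous tissue markers.

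Tgfbr1 was most like Pter (r = 0.97 over both sets of arrays) and Ext1 (0.93 over both). Tgfbr2 was most like Cubn (0.95, then 0.94) and Npc1 (0.94, then 0.93), and Tgfbr3 most like Shank3 (0.93, then 0.94) and Rapgef1 (0.93, then 0.91). No gene named here was shared among the 3 receptors. With so few genes named for each, this cannot show whether the patterns of the receptors were alike. Tgfbi was most like Mcub (0.98, then 0.93) and Ctsc (0.97, then 0.93). Inhba was most like Brk1 (0.99, then 0.92) and Fcgr3 (0.98, then 0.89), Inhbb most like Car12 (0.93, then 0.94) and Thbs3 (0.88, then 0.89), and Fst most like Tmem201 (0.91, then 0.92) and Bend7 (0.87, then 0.84). The coefficients of Inhba dropped most when the low array was left out.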

How the data were processed

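Agilent Feature Extraction 10.7.3.1 made the 16 scanner files, per the file headers. The deposited files give for each spot a background-corrected intensity and a call of whether it lies well above background. The authors also deposited a table of processed values for 50815 probes, read as log2 (from -1.67 to 20.43) and made with limma 3.20.9, per the submitters' processing notes; how its background was treated is not stated, and it served as an alternative.

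Control spots and spots marked as outliers were left out, spots of a probe were averaged, and each array's 75th percentile was subtracted from the log2 intensity. Of 56605 probes, 43268 had a call above background on 4 or more of the 16 arrays and were tested. Gene lists used the brightest probe of each of 28250 genes. Repeated spots varied by 2.22% to 4.32%, and 0 spots were saturated. The number of arrays limits the precision: SEs of log2 differences had a median of 0.29 for 4 arrays against 4, and of 0.20 for 8 against 8.

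All 16 arrays entered one limma 3.58.1 model of the 4 group means (R 4.3.3), with 12 residual degrees of freedom, 2-sided p-values and Benjamini-Hochberg adjustment over all probes at 0.05. The fit was tested on simulated data. Each mouse gave 1 joint per the labels; replicate numbers follow the order of the records. The arrays lay on 2 slides of 8, each with 2 of every group. Named genes were the 10 members, the 2 genes most like each, and in each pathway list those past the threshold or the 2 with the smallest p. One gene named by this rule is not reported here. Members, lists and alternatives were chosen with earlier results of these data known. No protein sequence or mm9 annotation was used here. Figures were drawn with matplotlib 3.10.9 in Python 3.11.15.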

Additional observations from a re-analysis of the deposited data

Results flagged for a closer look

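In 60 groups of 4 values (15 probes in 4 groups), 7 held a value far from the other 3 by Dixon's test; chance flags about 1 in 20 groups. Of these, 4 came from sham 6 weeks replicate 2: Inhba at -2.95, Tgfbi at 2.82, Tgfbr3 at -0.24 and Tgfb2 probe 2 at -1.44, each the lowest of its group. Another 2 came from sham 1 week replicate 4, with Fst at -3.18 and Tgfbr1 probe 2 at -0.77, also the lowest of their group. In DMM 6 weeks replicate 2, Tgfbr1 probe 2 was low at -1.24. The probe that stands for Tgfbr1 was not flagged in any of these groups.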

How the results depend on the processing

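No paired analysis was possible because sham and DMM joints came from different mice, which no label pairs. For 6 against 1 week, the probes past the threshold numbered 8483 with array weights, 576 with a filter at 12 of 16 arrays, 0 with no filter, 644 with normexp, 916 with slide as a block, and 0 to 2405 when 1 array was left out (2405 without sham 6 weeks replicate 2); the cause was not tested. DMM against sham gave 0 probes in every setting run. By the probe that stands for each of the 10 genes, Tgfbr1, Tgfbr2 and Tgfbi passed for time under array weights only; Tgfbr1 probe 2 also passed without sham 6 weeks replicate 2 (adjusted p 0.0497). Several differences near 0 changed sign. With array weights, DMM against sham at 6 weeks was -0.08 for Tgfb1, -0.20 for Tgfb2, -0.06 for Tgfbi, 0.08 for Tgfbr1, -0.04 for Tgfbr2 and -0.03 for Inhba; at 1 week 0.03 for Tgfb2 and 0.01 for Tgfbr3; their difference -0.01 for Inhba, -0.23 for Tgfb2, -0.37 for Tgfbi and -0.04 for Tgfbr2; and time 0.02 for Inhba and 0.08 for Tgfbr3. In the authors' table DMM at 6 weeks was -0.06 for Tgfb2, -0.08 for Tgfb3 and -0.14 for Tgfbr2, and the difference of effects -0.06 for Tgfb2 and -0.13 for Tgfbr2. Quantile normalization gave -0.02 and -0.01 for Tgfbr2 and 0.05 for the Fst difference of effects; normexp gave -0.01 for Tgfb2 at 6 weeks, and its probe 2 -0.13. Tgfbr1 probes 2 to 4 gave differences of effects of -0.28, -0.24 and -0.22.

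Leaving out 1 array at a time gave these ranges. At 1 week: Tgfb2 -0.29 to 0.17, Tgfbr1 -0.44 to 0.15, Tgfbr2 -0.19 to 0.18, Tgfbr3 -0.21 to 0.15, Tgfbi -0.05 to 0.24, Eng -0.01 to 0.28. At 6 weeks: Tgfb1 -0.06 to 0.21, Tgfb2 -0.43 to 0.47, Tgfb3 -0.24 to 0.26, Tgfbr1 -0.11 to 0.04, Tgfbr2 -0.10 to 0.06, Tgfbi -0.06 to 0.46, Inhba -0.07 to 1.14, Inhbb -0.32 to 0.03. Difference of effects: Tgfb2 -0.41 to 0.49, Tgfbr1 -0.19 to 0.40, Tgfbr2 -0.17 to 0.20, Tgfbr3 -0.33 to 0.07, Tgfbi -0.15 to 0.37, Fst -0.23 to 0.13. Time: Tgfbr3 -0.14 to 0.09, Inhba -0.58 to 0.02. The alternatives for the pathway lists were chosen after seeing the data.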
